A study of Mus musculus with 2 samples.

Results

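The microRNAs of 3 loci, Mir219a-1, Mir219a-2 and Mir338, were examined in the small RNA of embryonic mouse hindbrain, the brain region that forms the cerebellum, pons and medulla. The loci were chosen by name, as the hairpins of the oligodendrocyte microRNAs miR-219a and miR-338, though with earlier results of these data known. All 3 had a row among the 1973 microRNA loci of the tables, and all 3 were among the 401 loci called detected here, for a count of 10 or more in each of the libraries. The series holds 1 group of 2 replicate libraries of RNA under 30 nucleotides from hindbrain of strain B6NCrl at 14.5 days of embryonic age. Replicate 2 was collected on 30 July 2014 and replicate 1 on 24 July 2014, and no treatment, mutant or second stage was included. The labels number the libraries as biological replicates and name 1 hindbrain for each, but another label gives pooled sexes and the donor label is the same for both. How many embryos each library holds was therefore not settled, and the spread between them covers collection, library preparation and sequencing together.

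Oligodendrocytes wrap axons in myelin and arise from precursors that divide and spread through the embryonic brain and mature mainly after birth. In mouse, miR-219 and miR-338 are induced as precursors leave the cell cycle, and they repress messages that hold cells in the precursor state, such as those of the growth factor receptor Pdgfra, the transcription factor Sox6 and the Notch effector Hes5. A microRNA is cut from a hairpin as a short duplex, and the bases near the 5′ end of the retained strand, the seed, pair with target messages.

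The mature sequences of the loci are shown because they bear on which reads could be given to a single locus. They come from RefSeq (GRCm38.p6), are written 5′ to 3′, and have the seed, bases 2 to 8, in capitals.
miR-219a-5p, of Mir219a-1 and of Mir219a-2: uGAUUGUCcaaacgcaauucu
miR-219a-1-3p, of Mir219a-1: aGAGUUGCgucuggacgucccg
miR-338-3p, of Mir338: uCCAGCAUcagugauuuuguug
miR-338-5p, of Mir338: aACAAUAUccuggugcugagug

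The 4 seeds differ from each other, and 0 other mature microRNAs of the 1738 entries in the RefSeq table carry any of them. miR-219a-5p stands letter for letter in both Mir219a hairpins, whereas miR-219a-1-3p, miR-338-3p and miR-338-5p each stand in 1 hairpin only of the 1005 listed. The Mir219a hairpins are printed next with their longest shared run of 22 bases in capitals, which holds the whole of miR-219a-5p and the base before it.
Mir219a-1: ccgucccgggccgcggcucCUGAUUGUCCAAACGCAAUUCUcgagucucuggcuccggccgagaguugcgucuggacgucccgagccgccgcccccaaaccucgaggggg
Mir219a-2: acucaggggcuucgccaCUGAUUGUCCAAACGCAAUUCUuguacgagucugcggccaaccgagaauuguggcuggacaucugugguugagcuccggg

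A read that lies within the run matches both hairpins equally, and reads that mapped to several positions, 34.3% of reads in replicate 2 and 33.9% of reads in replicate 1, were left unassigned. How many of them were miR-219a was not measured here. The counts of both Mir219a loci are therefore uncertain, and the share of each strand of a hairpin in them is unknown, because the tables hold 1 count per locus and strand. For Mir219a-2 the RefSeq table lists only the shared miR-219a-5p and no product of the other side of the hairpin. This gap in the reference does not mean that the locus makes none. The counts assigned to Mir219a-2 could therefore not be tied to a sequence shown. Mir338 had no comparable copy, since its longest run shared with another listed hairpin was 13 bases.

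The loci lie on 3 chromosomes, all on the minus strand (GRCm38, which is the mm10 build of the tables). Mir219a-1 lies on chromosome 17 at 34024983 to 34025092, where 88 of its 110 bases overlap an exon of the long noncoding RNA gene Gm26940 on the same strand, 303 bases from the Polycomb gene Ring1. Mir219a-2 lies on chromosome 2 at 29845631 to 29845727, outside other genes on its strand and 629 bases from Urm1. Mir338 lies within an intron of Aatk, a kinase gene of the nervous system, on the same strand, on chromosome 11 at 120014765 to 120014862. The hairpin of Mir219a-1 is 69.1% G and C, above 972 of the 1005 listed hairpins, while those of Mir338 and Mir219a-2 are at 56.1% and 55.7%, nearer the median of 51.7%.

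Levels are given in CPM, the gene-strand count of a locus per 1000000 gene-strand counts on microRNA loci, of which replicate 2 had 6667238 and replicate 1 had 5826676. Intervals are exact 95% Clopper-Pearson intervals that cover counting error only, since no molecular identifiers were counted. In bulk tissue, more cells with a microRNA and more of it per cell cannot be told apart.

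Mir219a-2 was the most abundant of the 3 loci. It had 16265 counts, or 2439.5 CPM (2402 to 2477), in replicate 2 and 16289 counts, or 2796 CPM (2753 to 2839), in replicate 1. Its mean of 2618 ± 252 CPM (SD, n = 2) placed it at rank 63 by mean level, above 338 of the 401 detected loci. The libraries had nearly equal raw counts, but replicate 2 was the deeper of them, so its CPM was lower and the intervals did not overlap.

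Mir338 had 2967 counts, or 445 CPM (429 to 461), in replicate 2 and 2267 counts, or 389 CPM (373 to 405), in replicate 1. Its mean was 417 ± 39.6 CPM (SD, n = 2), at rank 130, above 271 detected loci. Here replicate 2 was the higher library, in the direction opposite to Mir219a-2.

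Mir219a-1 was the lowest of the 3 loci. It had 1042 counts, or 156 CPM (147 to 166), in replicate 2 and 931 counts, or 159.8 CPM (149.7 to 170.4), in replicate 1. The mean was 158 ± 2.47 CPM (SD, n = 2), at rank 191 and near the median of 129.8 CPM over detected loci. The intervals of the libraries overlapped.

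**Figure D1:**
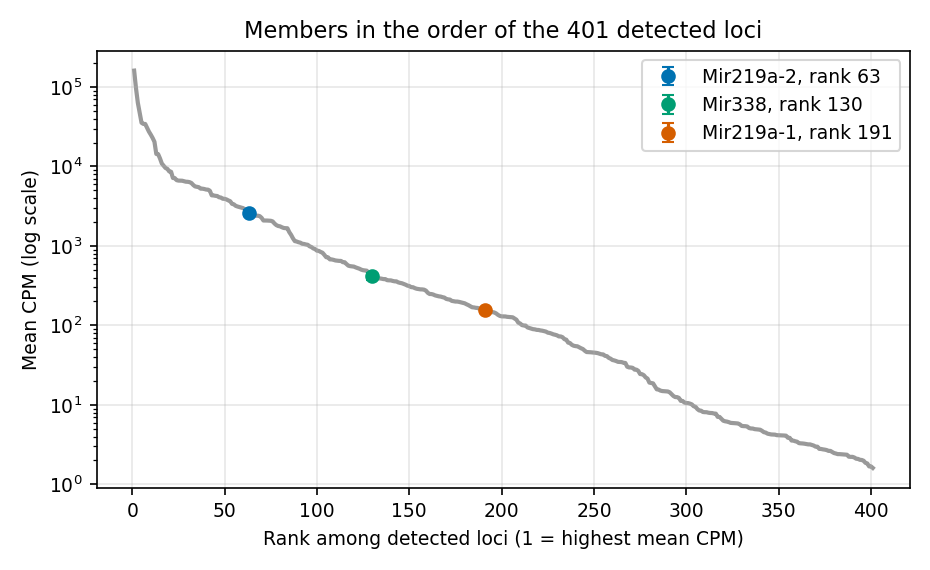
Mean CPM (log axis) of the 401 detected loci in order of level (grey line), with the 3 members as points and their SD over 2 libraries as bars, mostly smaller than the points. Mir219a-2 stands at rank 63, Mir338 at rank 130 and Mir219a-1 at rank 191.

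Together the 3 loci held 0.304% of all locus counts in replicate 2 (0.2999 to 0.308) and 0.334% in replicate 1 (0.3298 to 0.339), a mean of 0.319% ± 0.0215 (SD, n = 2). Mir219a-2 made up 80.2% of that sum in replicate 2 and 83.6% in replicate 1. The order Mir219a-2, Mir338, Mir219a-1 was the same in both libraries, and their ranges did not overlap. Per 100 bases of hairpin the order was also the same, with 2515 CPM for Mir219a-2, 454 CPM for Mir338 and 142 CPM for Mir219a-1 in replicate 2 and 2882, 397 and 145 CPM in replicate 1. How evenly the library chemistry captured different microRNAs was not measured, and the loss of shared miR-219a reads described above applies here too.

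The neighbours of each member in the order of mean level could not be told apart from it by the spread between the libraries. Mir219a-2 stood between Mir361 with 2778 ± 85.5 CPM and Mir34c with 2603 ± 768 CPM (SD, n = 2). Mir338 stood between Mir384 with 420.4 ± 25.4 CPM and Mir501 with 416 ± 11.9 CPM (SD, n = 2). Mir219a-1 stood between Mir410 with 159.9 ± 25.0 CPM and Mir29a with 157 ± 22.2 CPM (SD, n = 2). In each of these 6 pairs the ranges over the libraries overlapped, which the choice of loci adjacent in mean level made likely from the start.

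Likeness was measured as the distance over log2 CPM in the 2 libraries, among detected loci. Mir331 was the nearest locus to Mir219a-1, at a distance of 0.035, followed by Mir494 at 0.13 and Mir30b at 0.13. Mir384 was the nearest to Mir338, at 0.053, followed by Mir501 at 0.096 and Mirlet7c-1 at 0.14. Mir361 was the nearest to Mir219a-2, at 0.16, followed by Mir204 at 0.18 and Mir92b at 0.19. With 2 libraries of 1 tissue this measure describes level and the difference between the libraries only.

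Since the series has 1 group, the comparison left is that of the 2 libraries, which asks how far a level in this tissue varied between collections 6 days apart. Day of collection and replicate cannot be told apart. For each of 498 loci whose counts summed to 10 or more, an exact two-sided binomial test of counting error after TMM scaling, adjusted by the Benjamini-Hochberg method at 0.05, called 32.5% of loci. In replicate 2, 17.5% of all tested loci (87) stood higher and 15.1% (75) lower. Scaling by library totals instead of TMM gave 114 higher and 59 lower. The test compares these libraries, not conditions.

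Among the 3 members 1 was higher, 1 lower and 1 did not pass. Mir219a-2 was 1.18-fold lower in replicate 2 (log2 ratio of replicate 2 over replicate 1 -0.24, exact interval -0.27 to -0.21, adjusted binomial p = 2.57e-49). In replicate 2 Mir338 was higher by 1.11-fold (log2 ratio 0.15, exact interval 0.07 to 0.23, adjusted binomial p = 0.000713). Mir219a-1 had a log2 ratio of -0.07 (exact interval -0.20 to 0.05, adjusted binomial p = 0.467) and did not pass.

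These differences were of the size seen among other well-counted loci. Among 282 loci counted 100 times or more in both libraries, log2 ratios had an SD of 0.22 and the median absolute log2 ratio was 0.12, which Mir219a-2 and Mir338 exceeded and Mir219a-1 did not. The coefficient of variation over the libraries was 9.62% for Mir219a-2, 9.48% for Mir338 and 1.56% for Mir219a-1, with a median of 6.21% over those 282 loci. When the spread between the libraries was allowed for, with edgeR's exact test and its common dispersion, which corresponds to a coefficient of variation of 10.8%, 0 of the 3 members were called, with an adjusted p = 1 each, and 0 had an unadjusted p under 0.05. That test called 1.41% of the 498 loci. Its dispersion came from the same 2 libraries, so real differences between them enlarge it.

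**Figure D2:**
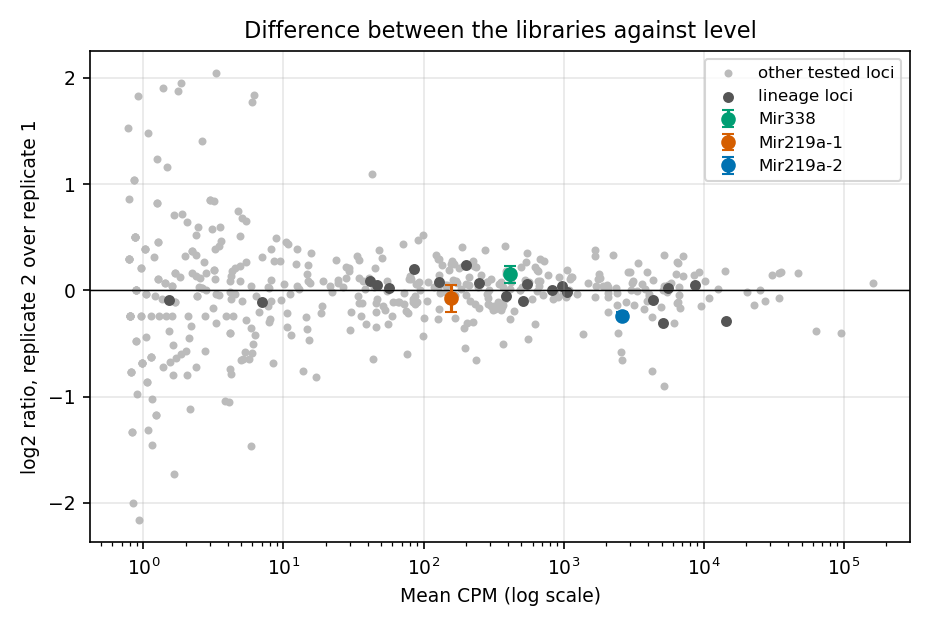
Log2 ratio of replicate 2 over replicate 1 (TMM-scaled) against mean CPM (log axis) for the 498 tested loci in grey, the other lineage loci in dark grey and the 3 members in colour with exact 95% intervals of counting error. Mir338 lies above 0 at 0.15, Mir219a-2 below it at -0.24, and the interval of Mir219a-1 spans 0.

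The members were also compared within each library, where scaling plays no part. There were 5.48 counts of Mir219a-2 per count of Mir338 in replicate 2 (5.27 to 5.70) and 7.19 in replicate 1 (6.88 to 7.51). The ratio thus differed between the libraries by -0.39 on the log2 scale (exact interval -0.48 to -0.30), more than either locus alone, because the loci moved in opposite directions. There were 15.6 counts of Mir219a-2 per count of Mir219a-1 in replicate 2 (14.7 to 16.6) and 17.5 in replicate 1 (16.4 to 18.7), a log2 difference of -0.16 (exact interval -0.30 to -0.03). For Mir338 over Mir219a-1 the ratio was 2.85 in replicate 2 (2.65 to 3.06) and 2.44 in replicate 1 (2.26 to 2.63), a log2 difference of 0.23 (exact interval 0.07 to 0.38). All 3 intervals of the differences leave out 0, but they cover counting error only and compare 2 libraries. Whether the Mir219a ratios follow the hairpins or the loss of shared reads was not tested.

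**Figure D3:**
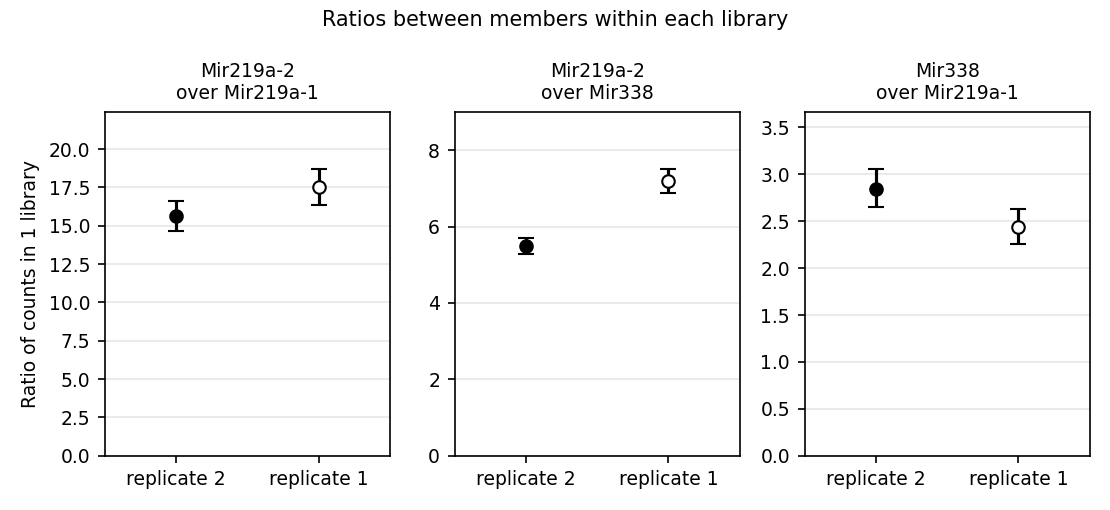
Ratios of counts between the members within each library, with exact 95% intervals of counting error as bars; each axis starts at 0. The ratio of Mir219a-2 to Mir338 is 5.48 in replicate 2 and 7.19 in replicate 1, and that of Mir338 to Mir219a-1 is 2.85 in replicate 2 and 2.44 in replicate 1.

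Each member faces another microRNA gene on the opposite strand: Mir219c opposite Mir219a-1, Mir219b opposite Mir219a-2 and Mir3065 opposite Mir338. None of these 3 has a row of its own, so their reads would stand in the opposite-strand column of the member. The mature sequences are shown because each is the complement of a member's product over 20 or 21 bases, with seeds in capitals (RefSeq, GRCm38.p6).
miR-219c-5p, of Mir219c: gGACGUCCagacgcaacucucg
miR-219c-3p, of Mir219c: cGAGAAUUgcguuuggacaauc
miR-219b-3p, of Mir219b: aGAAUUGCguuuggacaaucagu
miR-3065-5p, of Mir3065: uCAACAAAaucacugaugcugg

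The opposite strand held few counts at each member. At Mir219a-1 it had 12 of 1054 counts in replicate 2, a share of 1.14% (0.59 to 1.98), and 8 of 939 in replicate 1, a share of 0.852% (0.369 to 1.67). At Mir338 it had 1 of 2968 counts in replicate 2 (0.0337%, 0.000853 to 0.188) and 2 of 2269 in replicate 1 (0.0881%, 0.0107 to 0.318). At Mir219a-2 it had 1 of 16266 counts in replicate 2 (0.00615%, 0.000156 to 0.0342) and 0 of 16289 in replicate 1 (0 to 0.0226%). A floor of 3 counts, the limit used for a count of 0 elsewhere, would be a share of 0.0184% there.

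The share was thus higher at Mir219a-1 than at the other members in both libraries, with intervals that did not overlap. Even there it came to 1.80 CPM in replicate 2, against 1.37 CPM in replicate 1. Over all loci together the opposite strand held a larger share of locus counts, 2.21% in replicate 2 and 1.99% in replicate 1. Among 18 detected loci that overlap an opposite-strand microRNA gene, 14 had any opposite-strand count, the median share pooled over both libraries was 0.0695% and 4 had a pooled share above the 1.00% of Mir219a-1. Of the 383 detected loci without such a gene, 24 had any. miR-219b-3p and miR-219c-3p share a run of 20 bases, so their reads may be missing from these counts as those of miR-219a-5p may be.

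Other microRNAs reported in the oligodendrocyte lineage were taken from a list of 24 loci, of which 20 had a row and were tested and 19 were detected. The list is not specific to the lineage, and Mir145a also serves below as a mural locus. In bulk tissue, counts of the listed loci may come from other cells. By mean level Mir219a-2 stood below 5 and above 15 of these 20, Mir338 below 10 and above 10, and Mir219a-1 below 13 and above 7. Another listed hairpin holds a mature sequence of Mir138-1, Mir138-2, Mir7-1, Mir7-2, Mir9-2, Mir9-3, Mir19b-1 and Mir92-1 letter for letter, so the levels of these 8 loci, and the order by level that uses them, are uncertain as they are for Mir219a.

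miR-138 is induced together with miR-219 and miR-338 in differentiating mouse oligodendrocytes. Mir138-1 stood at 1076 CPM in replicate 2, against 1052 CPM in replicate 1. Mir138-2 stood at 571 CPM in replicate 2, against 533 CPM in replicate 1. Neither passed the binomial test, with log2 ratios of -0.01 (-0.06 to 0.04) and 0.06 (-0.01 to 0.12).

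The other leading loci were listed for reported roles in precursors or in maturation, and the cells that held them here are not known. Mir17, of the cluster that promotes precursor proliferation in mouse, had 13108 CPM in replicate 2, against 15581 CPM in replicate 1. Mir125a had 8938 CPM in replicate 2, against 8370.1 CPM in replicate 1. Mir23a, which favours differentiation by repressing lamin B1, had 5658 CPM in replicate 2, against 5425 CPM in replicate 1. Mir20a and Mir18, of the same cluster as Mir17, had 4636 and 4244 CPM in replicate 2 and 5565 and 4382 CPM in replicate 1. All of these stood above Mir219a-2 in both libraries.

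Of the 20 tested loci, 2 were higher in replicate 2, 4 were lower and 14 did not pass the binomial test, beside the 17.5% higher and 15.1% lower over all loci. The median log2 ratio was 0.02 over the list and 0.01 over all tested loci. Mir17 (log2 ratio -0.29), Mir20a (-0.31), Mir18 (-0.09) and Mir9-3 (-0.10) were lower, and Mir32 (0.24) and Mir125a (0.05) were higher. With library totals 6 were higher and 3 lower. With edgeR's common dispersion 0 of the 20 were called and 0 had an unadjusted p under 0.05.

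**Figure D4:**
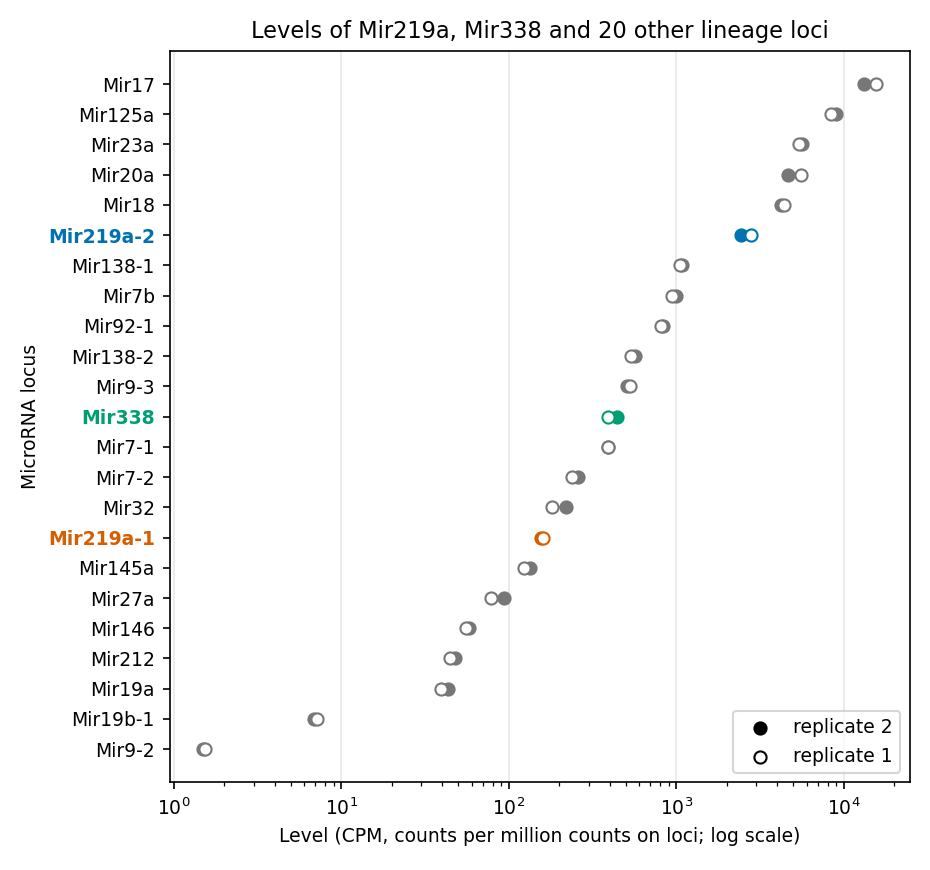
CPM (log axis) in replicate 2 (filled points) and replicate 1 (open points) of the 3 members, in colour, and of the 20 lineage loci with a row, in grey, ordered by mean level. Mir219a-2 stands below Mir18 and above Mir138-1, Mir338 between Mir9-3 and Mir7-1, and Mir219a-1 between Mir32 and Mir145a.

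Loci used as markers of other cell types were also counted in the same tissue. Which cells held the 3 members was not measured, so their sum below does not measure cells of the oligodendrocyte lineage. The 5 neuronal loci (Mir137, Mir128-1, Mir128-2, Mir149 and Mir153) summed to 31608 CPM in replicate 2 and to 27460.1 CPM in replicate 1. Whether other hairpins hold their mature sequences was not looked up, so shared reads may be missing from this sum. The 3 members summed to 3041 CPM in replicate 2 and to 3344 CPM in replicate 1. The endothelial Mir126a had 36687 CPM in replicate 2, against 31783 CPM in replicate 1. The mural loci Mir143 and Mir145a summed to 6930.5 CPM in replicate 2, against 6596 CPM in replicate 1. The red cell loci Mir451a and Mir144 summed to 373 CPM in replicate 2, against 261 CPM in replicate 1, and the myeloid Mir223 had 208 CPM in replicate 2, against 194 CPM in replicate 1.

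By the binomial test all 5 listed neuronal loci, Mir126a, Mir143, Mir451a and Mir144 were higher in replicate 2, while Mir145a and Mir223 did not pass. The choroid plexus locus Mir204 was lower, with 2153 CPM in replicate 2, against 2759 CPM in replicate 1. Neuron-enriched loci outside the 5 did not all follow them: Mir218-2 was lower (log2 ratio -0.36), and Mir218-1, Mir138-1 and Mir138-2 did not pass. Of loci of maturing neurons, Mir132 (log2 ratio 0.12), Mir129-2 (0.41), Mir488 (0.25) and Mir873a (0.48) were higher. Mir129-1, Mir212 and Mir384 did not pass. Among these added neuronal loci, shared mature sequences were looked up only for Mir138-1, Mir138-2 and Mir212. The median log2 ratio of the 5 was 0.18 and the ratio of Mir204 was -0.40. Over all tested loci the binomial test called 17.5% higher and 15.1% lower. With edgeR's common dispersion allowed for, Mir144 was the only one of these markers called (log2 ratio 1.09, adjusted p = 0.00834).

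Outside the marker list, 2 further loci were looked up after their values were seen. Mir449a, of multiciliated cells, had 3729 CPM in replicate 2, against 6775 CPM in replicate 1 (log2 ratio -0.90, adjusted p = 0.00834 with edgeR's common dispersion). Mir1298, in an intron of the choroid plexus gene Htr2c, had 3209 CPM in replicate 2, against 5275 CPM in replicate 1 (log2 ratio -0.76, adjusted p = 0.0457 with edgeR's common dispersion). Both are among the 7 loci called with the common dispersion, which went in both directions, with Mir144 of the marker list higher. Since both were picked by their values, no direction of a member can be read from them. The part of other cell types in the members' differences was not tested.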

How the data were processed

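Small RNA of 2 hindbrain libraries of 1 group was analysed. The authors deposited raw counts of reads for each microRNA locus, on both strands, on the gene strand and on the opposite strand. Per the file headers of the accompanying lists, the build is mm10 and the annotation release M4; aligner and counter: not given in the sources used here. Reads not assigned to the gene strand of a locus stayed outside library sizes. In replicate 2 these were 34.3% multimapping, 15.9% unmapped and 3.31% off the gene strand of loci. In replicate 1 the shares were 33.9%, 13.8% and 2.99%. The last share of each library includes reads on the opposite strand of loci.

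Symbols and positions came from GENCODE M21 (1894 of 1973 loci matched), and sequences from RefSeq, where all 3 members and their 3 antisense partners matched. CPM used gene-strand totals. Ratios used TMM scaling (factors 1.01 and 0.985 for replicates 2 and 1) and 0.5 added to each count. The binomial test and edgeR's exact test were run across all 498 loci, since a quasi-likelihood fit has no residual degrees of freedom. Alternatives covered scaling, strand, filter, pseudocount, denominator, summed copies and single replicates.

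The rule for named loci took the members, their antisense partners, the lineage loci (values for the highest 6 and for those induced with the members), and for each member the 3 nearest loci by distance and the next above and below in level. Mir449a, Mir1298, Mir218-1 and Mir218-2 were added, and so were Mir132, Mir129-1, Mir129-2, Mir488 and Mir873a. The loci of this second group, and the ratios of the 6 lineage loci that passed the test, were given after their values were seen. Members and lists were chosen with earlier results of these data known. Fits used edgeR 4.0.16 and DESeq2 1.42.0 in R 4.3.3; tests and plots used scipy 1.17.1, pandas 2.3.3 and matplotlib 3.10.9 in Python 3.11.15.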

Additional observations from a re-analysis of the deposited data

Results flagged for a closer look

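Opposite-strand counts at Mir219a-1 stood above the limit of 3 counts that a count of 0 allows, with 12 in replicate 2 and 8 in replicate 1, in a column outside the CPM levels. As a share of locus counts they stood below the opposite strand summed over all loci, which held 2.21% in replicate 2 and 1.99% in replicate 1. Most single loci held less than Mir219a-1. Of the 401 detected loci, 363 had 0 opposite-strand counts in both libraries, and 6 had a pooled share above the 1.00% of Mir219a-1. Which RNA of that strand the counts at Mir219a-1 came from cannot be told apart in the tables, and the series has no control samples for the strand columns. Groups of 2 libraries are too small to test for a library that stands apart.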

How the results depend on the processing

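Of 26 alternative values of the members' log2 ratios, 23 kept their direction and their side of the threshold, 2 lost the call, 1 gained it and 0 reversed. The values with another pseudocount are among the 23 and could not change a call, since the binomial test does not use the pseudocount. With edgeR's common dispersion Mir219a-2 (-0.24) and Mir338 (0.15) lost their calls, as that test allows for the spread between the libraries. With the Mir219a loci summed, the log2 ratio was -0.23 (adjusted binomial p = 2.72e-48), a call that Mir219a-1 alone did not have and that rests on the counts of Mir219a-2. Over scalings, pseudocounts and strand columns the log2 ratio was -0.26 to -0.20 for Mir219a-2, 0.13 to 0.19 for Mir338 and -0.09 to -0.03 for Mir219a-1. With all reads as denominator the levels were 1257 CPM for Mir219a-2, 199.4 CPM for Mir338 and 75.7 CPM for Mir219a-1, by construction, and the summed Mir219a loci had 2776 CPM. The binomial test called 157 to 173 loci over scalings, filters and strand columns, and 7 with the common dispersion, which called 0 of the lineage loci (0 at an unadjusted p under 0.05) against 6 by the binomial test. Single libraries moved no level or opposite-strand share by more than 1 SD, which with 2 values could not happen. No paired analysis was possible because the series has 1 group. Depth did not limit the levels of the 3 loci; it did limit the opposite-strand shares, which rest on 0 to 12 counts.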
